A study of Mus musculus with 16 samples.

Results

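Npas4, Btg2 and Scg2 are 3 genes that neurons induce when they are active. They were chosen by name from the deposited expression tables of a study in which 8 C57Bl6 mice had a stroke and the primary motor cortex of both hemispheres was sequenced. The tables list 661 genes in all, 263 for the lesioned hemisphere (ipsilesional) and 417 for the opposite one (contralesional), and 19 of these genes are in both. Npas4 and Scg2 are listed on both sides. Btg2 is listed on the contralesional side only, so no ipsilesional level of it was available here. By the labels, 3 of the animals (animals 6, 23 and 28) recovered spontaneously on a horizontal rotating beam and 5 (animals 17, 19, 20, 21 and 29) did not. No unlesioned or sham group was used here, and the labels used here give no age, sex, lesion method or time after stroke. Each animal gave 1 library of messenger RNA from each side.

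Activity-dependent transcription starts when synaptic input and calcium entry activate kinases that phosphorylate CREB and related factors already bound to DNA. A first wave of genes, the immediate early genes, then appears without new protein synthesis. Npas4 encodes a neuron-specific transcription factor of the bHLH-PAS family that is turned on by calcium entry and that regulates inhibitory and excitatory synapses. Btg2 encodes an antiproliferative protein of the BTG/Tob family that binds the CCR4-NOT deadenylase, and it responds to p53 and growth factors as well as to neuronal activity. Scg2 encodes secretogranin II, a granin of dense-core vesicles and the precursor of the neuropeptide secretoneurin, so it belongs to the secreted output of neurons rather than to their transcription factors.

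The sequences before the transcript starts are shown because they hold the letters that the genes have in common. Windows of 30 bases around the cAMP response element (CRE), the sequence CREB binds, are given 5′ to 3′ on the gene's own strand, from RefSeq on GRCm38.p6, with the bases of the 7-letter form TGACGTC or its reverse complement in capitals.
Npas4: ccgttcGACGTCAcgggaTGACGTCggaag
Btg2: tgttcccaataaTGACGTCAgtgagcgatg
Scg2: aggctgagccggTGACGTCAgcgtggaatg
The Npas4 window lies at chr19:4990129-4990158, the Btg2 window at chr1:134079304-134079333 and the Scg2 window at chr1:79440077-79440106, all on the minus strand. Btg2 and Scg2 hold the full 8-letter palindrome TGACGTCA, from 166 to 159 bases before the start in Btg2 and from 68 to 61 bases before it in Scg2. Npas4 holds no full palindrome but 2 separate 7-letter matches, from 181 to 175 and from 169 to 163 bases before the start, which read on opposite strands. Of 32851 RefSeq promoter windows of the same 250 bases, 2.78% held TGACGTC on either strand and 1.55% held TGACGTCA, which contains it. The RefSeq start is not the only annotated one. In GENCODE M21 the Npas4 and Scg2 windows fall inside exon 1 of a longer transcript, Npas4-201 and Scg2-201. The Btg2 window lies outside any annotated exon of that gene. Other short motifs differed among the 3 genes. TATAA stood from 26 to 22 bases before the start in Npas4 and from 27 to 23 in Scg2 (22.8% of windows hold it), and Btg2 had none. GGGCGG (32.7% of windows) was matched on either strand 3 times in Btg2 (with 1 base shared by 2 of the matches), 1 time in Npas4 and 0 times in Scg2, and CCAAT (33.8%) 2 times in Btg2 and 0 times in the other two. Neither TGANTCA, the AP-1 motif, nor the CArG box of SRF nor the MEF2 motif was matched in any of the 3 windows. These matches are letters in a window, and the deposited files hold no measurement of binding.

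**Figure D1:**
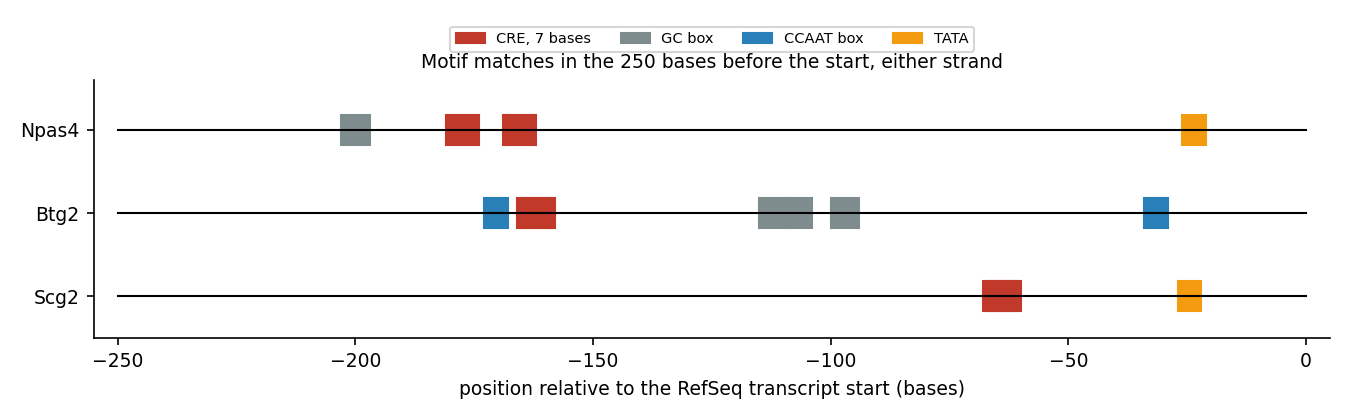
Positions of motif matches on either strand in the 250 bases before the RefSeq transcript start of Npas4, Btg2 and Scg2, in bases from the start. The 7-base CRE (red) is present in each of the 3 genes, as 2 separate matches in Npas4 and as overlapping matches on both strands in Btg2 and Scg2.

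Expression is given as reads scaled to a common library total (CPM), computed from the whole reads that underlie the deposited values, and differences are given on the deposited log2 CPM scale, as the mean of recovered minus the mean of non-recovered animals. The totals by which the libraries were scaled ranged from 17972791 to 27895465 reads. Totals of the ipsilesional groups were 23.3 ± 0.929 M reads (SD, n = 3) in recovered and 23.8 ± 2.95 M reads (SD, n = 5) in non-recovered animals, and those of the contralesional groups were 21.9 ± 3.81 M (SD, n = 3) and 25.5 ± 2.98 M reads (SD, n = 5). The ipsilesional library of animal 6 stood apart by the sum of its myeloid markers, of which 4 of 18 were listed (C3, Gpnmb, Itgam and Lyve1, none at 0 reads). Their summed level was 148 CPM there against 9.05 to 22 in the other 7 libraries. Lyve1 was not high there. It was -0.32 log2 CPM or lower in each recovered library and -0.06 or higher in each non-recovered one. The excitatory neurons of the labelled cortex could not be checked, since only Calb1 of 16 excitatory neuron markers was listed, and only ipsilesionally.

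Npas4 was lower on average in ipsilesional cortex of recovered animals, by a factor of 1.96 on the deposited scale. As context, 50.2% of the ipsilesional genes were lower in recovered animals, and the groups did not overlap for 42.2% of them. Its gene lies on chromosome 19 from 4984355 to 4990316 of GRCm38, on the minus strand, with no other annotated gene overlapping it. Ipsilesional Npas4 was 2.71 CPM in animal 23, 3.54 in animal 6 and 7.36 in animal 28 of the recovered group. In the non-recovered group it was 3.71 CPM in animal 19, 8.04 in 20, 9.38 in 21, 11.5 in 17 and 11.5 in 29. The groups overlapped, because the recovered animal 28 lay above the non-recovered animal 19, which was 1 of 15 possible pairs against the direction of the means. Mean log2 CPM was 2.08 ± 0.73 (SD, n = 3) in recovered and 3.05 ± 0.66 (SD, n = 5) in non-recovered animals. The difference was -0.97 ± 0.44 (SE, 95% interval -1.98 to 0.03) and did not pass the limma test (adjusted p = 0.0688 over the 263 listed genes, unadjusted p = 0.0560; exact 2-sided permutation p = 0.0893). With 3 against 5 animals there are 56 splits, and the smallest p they allow is 0.0179. In bulk tissue, fewer cells that express a gene and less RNA per cell cannot be told apart.

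Counting error was small beside this spread. The 65 Npas4 reads of animal 23 gave a 95% Poisson interval of 2.09 to 3.45 CPM, and the 302 reads of animal 17 gave 10.2 to 12.8 CPM, intervals that cover counting error only. The highest ipsilesional library held 4.14 times as much Npas4 as the lowest on the deposited scale.

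Contralesional Npas4 was also lower on average in recovered animals, by a factor of 2.08, where 64.7% of the contralesional genes were lower. It was 2.64 CPM in animal 6, 3.91 in animal 23 and 10.6 in animal 28 of the recovered group. Non-recovered values were 5.31 CPM in animal 19, 9.53 in 20, 11 in 17, 13.1 in 21 and 14.3 in 29. Animals 6 and 23 lay below every non-recovered animal, while animal 28 lay above animals 19 and 20, which were the 2 pairs of 15 against the direction of the means. On the log2 CPM scale the recovered mean was 2.29 ± 1.02 (SD, n = 3) and the non-recovered mean 3.35 ± 0.56 (SD, n = 5). The difference of -1.06 ± 0.44 (SE, 95% interval -2.06 to -0.06) had an unadjusted limma p of 0.0404 but did not pass after adjustment over the 417 listed genes (adjusted p = 0.0621; exact permutation p = 0.0893). Its size depended on single recovered animals, being -0.64 without animal 6 (limma adjusted p = 0.20) and -1.63 without animal 28 (limma adjusted p = 0.0526).

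Btg2, on chromosome 1 from 134075170 to 134079120 on the minus strand, was lower on average in the same contralesional libraries by a smaller factor of 1.44. Recovered animals had 5.91 CPM (animal 6), 6.64 (animal 23) and 9.18 (animal 28). Non-recovered animals had 6.03 CPM (animal 19), 9.95 (animal 20), 10.1 (animal 17), 13.8 (animal 29) and 13.9 (animal 21). Only animal 19 of the non-recovered group fell among the recovered values, below animals 23 and 28. The means were 2.85 ± 0.33 (SD, n = 3) and 3.38 ± 0.49 log2 CPM (SD, n = 5). The difference was -0.53 ± 0.27 (SE, 95% interval -1.13 to 0.07) and did not pass (limma adjusted p = 0.0852, unadjusted p = 0.0774; exact permutation p = 0.143). Reads per library numbered 130 to 378 for Btg2, against 58 to 393 for contralesional and 65 to 302 for ipsilesional Npas4.

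Scg2 was higher on average in recovered animals in both tables, by factors of 1.12 ipsilesionally and 1.17 contralesionally, where 49.8% and 35.3% of the listed genes were higher. It lies on chromosome 1 from 79434669 to 79440120 on the minus strand, and it was far more abundant, with 3130 to 5021 reads per library. Divided by the bases covered by annotated exons, contralesional Scg2 stood at 77.8 ± 3.87 CPM per kilobase in recovered animals (SD, n = 3), where Btg2 stood at 2.64 ± 0.626 and Npas4 at 1.38 ± 1.04 CPM per kilobase.

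Ipsilesional Scg2 was 176 CPM in animal 6, 176 in animal 28 and 184 in animal 23 of the recovered group. Among non-recovered animals it was 148 CPM in animal 29, 151 in 21, 159 in 20, 164 in 19 and 176 in 17. Animal 17 fell between animals 6 and 28, and the other 4 non-recovered animals lay below all of the recovered ones. The log2 CPM means were 7.48 ± 0.04 (SD, n = 3) and 7.32 ± 0.10 (SD, n = 5), a difference of 0.17 ± 0.07 (SE, 95% interval 0.01 to 0.32). It had an unadjusted limma p of 0.0401 and did not pass after adjustment (adjusted p = 0.0660; exact permutation p = 0.0714).

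Contralesional Scg2 was the only one of the 5 comparisons in which the groups did not overlap. It was 186 CPM in animal 28, 196 in animal 23 and 205 in animal 6 of the recovered group. Non-recovered values were 156 CPM in animal 21, 157 in 20, 168 in 17, 178 in 19 and 182 in 29. Every recovered animal thus lay above every non-recovered one, with 186 against 182 CPM at the border. The means of 7.61 ± 0.07 (SD, n = 3) and 7.39 ± 0.10 log2 CPM (SD, n = 5) differed by 0.22 ± 0.08 (SE, 95% interval 0.05 to 0.39). The exact permutation p was 0.0357, with no adjustment for the 5 comparisons made, and the limma adjusted p of 0.0576 did not pass. Groups that do not overlap were common in this table, at 43.2% of its genes, 17.7% of them higher and 25.4% of them lower in recovered animals.

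**Figure D2:**
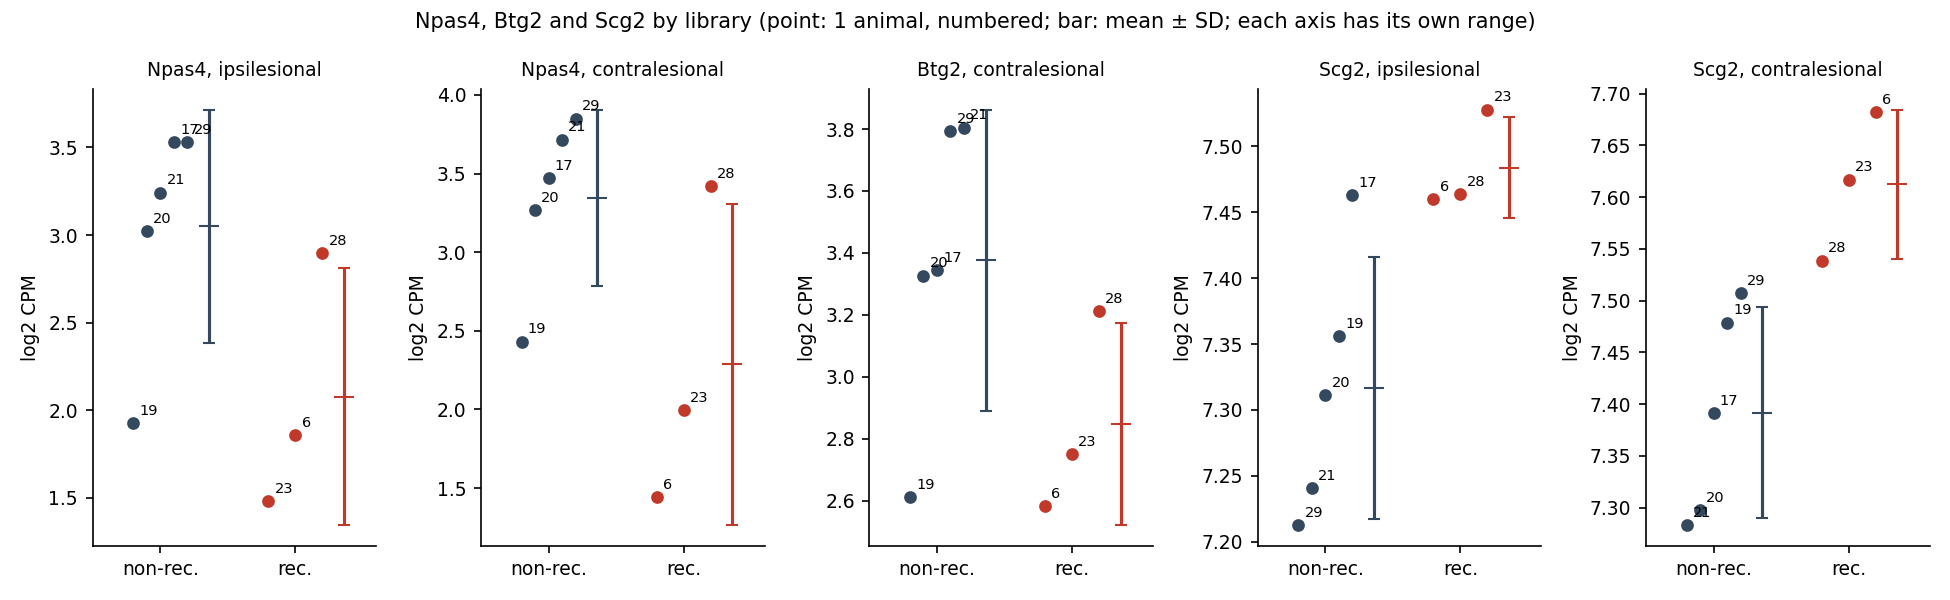
Log2 CPM of Npas4, Btg2 and Scg2 in each library (points, labelled by animal number) with the mean ± SD beside them, for 5 non-recovered and 3 recovered animals; each panel has its own axis range. Npas4 and Btg2 overlap between groups through animals 28 and 19, and contralesional Scg2 does not overlap.

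The factors that separated Npas4 and Scg2 within a library showed the same split. On the log2 CPM scale, ipsilesional Scg2 exceeded Npas4 by 5.60 in animal 6, 6.05 in animal 23 and 4.57 in animal 28, and by 3.68 to 4.29 in 4 of the non-recovered animals and 5.43 in animal 19. Contralesionally the excess was 6.24 in animal 6, 5.62 in animal 23 and 4.12 in animal 28, against 3.57 to 4.03 in the same 4 non-recovered animals and 5.05 in animal 19. These within-library differences do not depend on the library's scale, and they describe the values above without a test of their own.

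No comparison of these genes passed an adjusted p of 0.05. Over the whole tables, 1.14% of ipsilesional and 7.91% of contralesional genes did. At an unadjusted limma p under 0.05, 1 of the 2 ipsilesional genes (Scg2) and 2 of the 3 contralesional genes (Npas4 and Scg2) passed, where 74.5% and 73.4% of all listed genes did. By direction, 37.3% of ipsilesional genes were past that unadjusted threshold and higher, and 37.3% past it and lower. Contralesionally 25.7% were past it and higher and 47.7% past it and lower, and 1.92% were past the adjusted threshold and higher. The tables hold genes already selected on these libraries, and the smallest difference listed was 0.13 ipsilesionally and 0.12 contralesionally in size. Npas4 combined a wide difference with a wide error. It ranked 3 of 263 and 2 of 417 by the size of its difference, but 214 of 263 and 271 of 417 by its limma p. Btg2 ranked 38 of 417 by size. Scg2 ranked 224 of 263 and 263 of 417 by size, under the median absolute difference of 0.26 in each table.

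**Figure D3:**
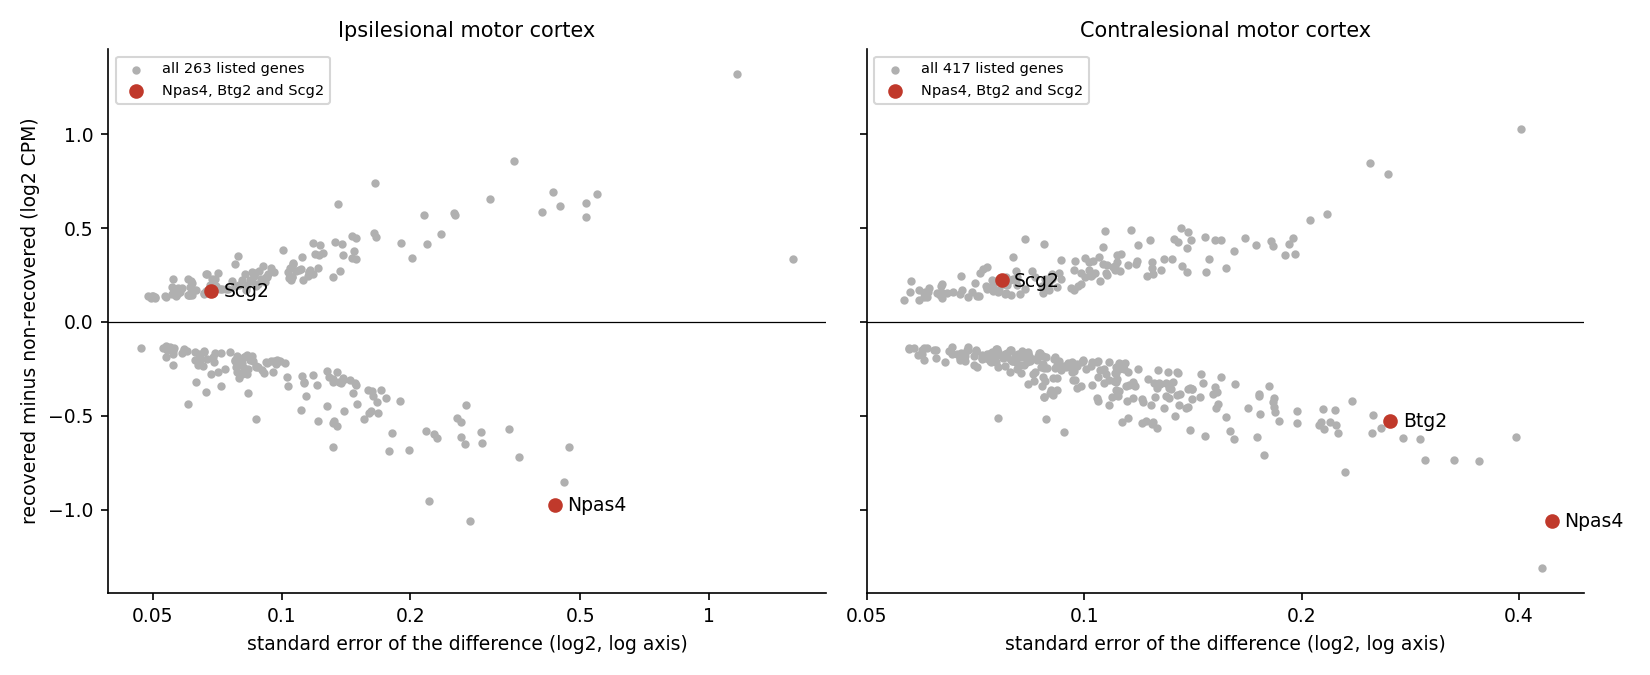
Difference between recovered and non-recovered animals (log2 CPM) against its standard error (log axis) for the 263 ipsilesional and 417 contralesional listed genes, with Npas4, Btg2 and Scg2 in red. Npas4 sits at a large negative difference with a large error on both sides, and Scg2 at a small positive difference with a small error; no listed gene lies near 0.

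The same animals were low in Npas4 on both sides. Paired by the animal number of the titles, animals 6, 19 and 23 held the 3 lowest Npas4 values in ipsilesional and in contralesional cortex, and animal 29 held the highest in both. A gap of 0.97 ipsilesionally and 0.83 contralesionally (log2 CPM) separated these 3 libraries from the other 5. Because the libraries fell into such separate sets, the levels of Npas4 and Btg2 are given no correlation with a test over all 8 animals, and sets of 3 and 5 are too small for one within them. Animal 19 is labelled as non-recovered and animal 28, in the upper set on both sides, as recovered. The sets thus differ from the recovery groups by these animals only. The titles and descriptions of the contralesional libraries exchange animals 6 and 23. Both are recovered and both are in the low set, so neither the group means nor the sets depend on it.

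Scg2 ordered the animals differently on the 2 sides. Animal 29 was the lowest of 8 ipsilesionally and the fifth from below contralesionally, and animal 17 was the sixth ipsilesionally and the third contralesionally. The largest inner gap between Scg2 libraries was 33.0% of their range ipsilesionally, just under the 33.3% taken here as a split into sets, and 23.4% contralesionally. Across the 8 animals the values gave Pearson r = 0.60 (exact permutation p = 0.123) and Spearman rho = 0.55 (exact permutation p = 0.171) by animal number, and r = 0.63 (p = 0.0985) and rho = 0.62 (p = 0.115) by description code; adjusted over these 4 values, the exact permutation p was 0.164 to 0.171. Without animals 21 and 29, the farthest from the median, r was 0.70 by number and 0.78 by code. These values include the group difference of Scg2, which has the same sign on both sides. Taken as deviations from the group means, r was 0.0035 by number and 0.10 by code.

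The recovery differences of the hemispheres were set against each other over the 19 genes listed in both tables. The tables were normalized separately, so only differences within a table were compared, never levels. For Npas4 the ipsilesional difference minus the contralesional one was 0.087 ± 0.67 (SE, 95% interval -1.35 to 1.52; limma adjusted p = 0.931). For Scg2 it was -0.054 ± 0.12 (95% interval -0.30 to 0.19; limma adjusted p = 0.931). Neither passed, and this interval for Npas4 is wider than the Npas4 difference itself. That fit took the 16 libraries as independent, although each animal gave 1 library per side. With the animal as a replicate block, the Npas4 interval was -0.42 to 0.59 by animal number and -0.29 to 0.46 by description code. For Scg2 the blocked intervals were -0.31 to 0.20 and -0.29 to 0.18, and neither gene passed.

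**Figure D4:**
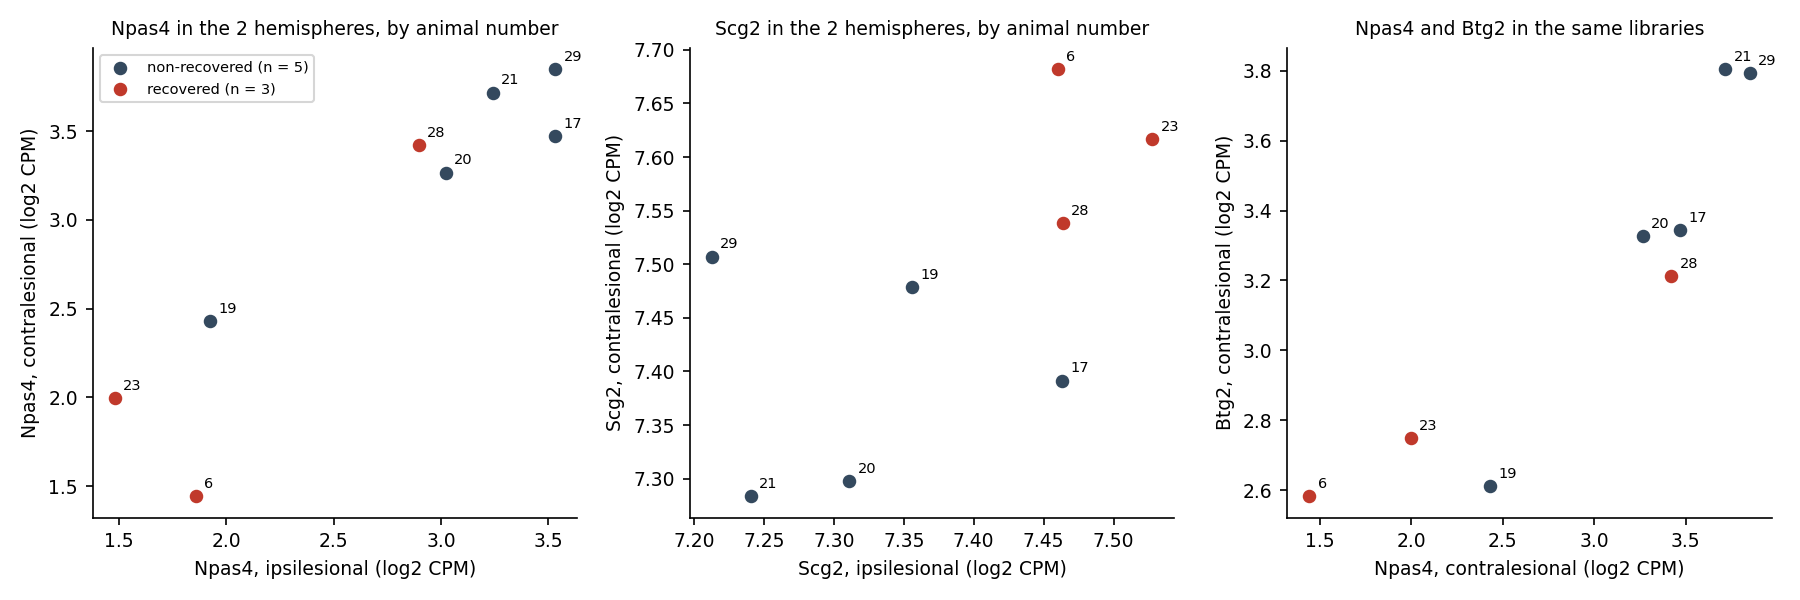
Log2 CPM by animal number, for Npas4 and Scg2 in ipsilesional (x) against contralesional cortex (y) and for Npas4 (x) against Btg2 (y) in contralesional libraries. Animals 6, 19 and 23 are the 3 lowest in each Npas4 panel and in Btg2, while Scg2 does not repeat this order.

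Btg2 was among the genes most like Npas4 across the contralesional libraries. Likeness was measured as Pearson's r over the 8 libraries of a table, with each value taken as its deviation from the mean of its recovery group, so that the group difference itself did not enter. Libraries share depth and tissue, and r is a description here. The 3 libraries low in Npas4 and Btg2 and the other 5 enter it together, and how far r rests on that split was not tested. By this measure Btg2 was the second most like of 416 contralesional genes to Npas4 (r = 0.88), and Npas4 was likewise second for Btg2, where the median over all listed genes was 0.04 for each. In contralesional cortex Btg2 minus Npas4 was between -0.21 and 0.18 on the log2 CPM scale in the 5 non-recovered animals and animal 28, and 1.14 and 0.75 in animals 6 and 23. Npas4 was thus lower relative to Btg2 in those 2 libraries than in the other 6. Scg2 stood at r = -0.48 with contralesional Npas4 (rank 360 of 416), -0.43 with Btg2 (rank 365) and -0.22 with ipsilesional Npas4 (rank 198 of 262).

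This likeness leaves out the group difference, which can have the other sign: ipsilesional Peg10 was higher on average in recovered animals (0.24 ± 0.09, limma adjusted p = 0.0601) and Npas4 lower. Among the genes closest to contralesional Npas4 were Btg2 and Stx5a, a syntaxin of the Golgi (r = 0.86). The most opposed were Asns, asparagine synthetase (-0.86), and the zinc finger gene Zfp566 (-0.82). For Btg2, the closest were BC030499 (0.90), Npas4 and Hdx (0.86), and the most opposed Ahdc1 (-0.87) and again Asns (-0.82). Ipsilesional Npas4 was closest to Nbl1, a BMP antagonist (0.94), Peg10, an imprinted gene derived from a retrotransposon (0.93), and Ptgds, prostaglandin D synthase, which is also a marker of the meninges (0.91). It was most opposed to Slc35g2 (-0.94) and the BH3-only gene Hrk (-0.89). Ipsilesional Scg2 was closest to Chrm2, a muscarinic receptor (0.88), Slc16a12 (0.87) and Bmp2 (0.81), and most opposed to Plin4, a perilipin (-0.96), and the hyaluronan receptor gene Lyve1 (-0.93). Contralesional Scg2 was closest to Crispld1 (0.90), the potassium channel gene Kcnk10 (0.87) and the connexin gene Gjc1 (0.85), and most opposed to Fkbpl (-0.90) and the Notch target Hes5 (-0.86).

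Few other activity-dependent genes were listed. Of 30 activity-induced transcription regulators, Npas4 alone was listed ipsilesionally, and Npas4, Btg2 and Klf2 contralesionally. Klf2, a Krüppel-like factor, was lower on average in recovered animals by -0.36 ± 0.13 (2.96 ± 0.25 against 3.32 ± 0.17 log2 CPM, SD, n = 3 and 5; limma adjusted p = 0.0590), so all 3 were lower with 0 past the adjusted threshold; 64.7% of contralesional genes were lower. Of 41 activity-induced effector genes, 3 were listed ipsilesionally and 2 contralesionally, with 0 past the adjusted threshold. Over all listed genes, 1.14% ipsilesionally and 7.91% contralesionally were past it, and 49.8% and 35.3% were higher in recovered animals. Ipsilesional Peg10 was higher (0.24 ± 0.09) beside Scg2, and Lonrf3 was lower (-0.32 ± 0.06), with limma adjusted p of 0.0601 and 0.0511. Contralesional Sorcs3, a sorting receptor of the VPS10 family, was higher (0.30 ± 0.11, limma adjusted p = 0.0590) beside Scg2. Other genes of these lists, such as Fos, Arc and Egr1, were not analysed here.

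Upstream and downstream of them the lists were sparse too. Of 38 genes of calcium, CREB and MAP kinase signalling, the ribosomal S6 kinase gene Rps6ka2 was the 1 listed ipsilesionally (-0.29 ± 0.10, limma adjusted p = 0.0601), and Nfatc3, a transcription factor controlled by calcineurin, the 1 listed contralesionally (-0.30 ± 0.09, limma adjusted p = 0.0520). Scg2 was the only listed gene of 17 granin and dense-core vesicle genes in either table. Of 16 neuropeptide genes, contralesional Penk (-0.25 ± 0.13) and Sst (0.14 ± 0.07) were listed and did not pass (limma adjusted p = 0.0838 and 0.0887).

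Btg2 was listed with 3 relatives among 14 genes of the BTG/Tob family and the CCR4-NOT deadenylase. Contralesional Tob1 (-0.21 ± 0.08), Tob2 (-0.18 ± 0.08) and the deadenylase subunit gene Cnot6 (-0.15 ± 0.07) were lower on average, with limma adjusted p of 0.0590, 0.0628 and 0.0777. The median of the 4 was -0.20, against -0.19 for all contralesional genes. Of 15 p53 targets, contralesional Trp53inp1 was lower beside Btg2 (-0.28 ± 0.09, limma adjusted p = 0.0520), and ipsilesional Pidd1 was higher (0.74 ± 0.17, limma adjusted p = 0.0532, 16 to 40 reads per library).

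Marker sums of several cell types were compared too, and all but the contralesional striatal one overlapped between the groups. Of 20 striatal neuron markers, 11 were listed contralesionally and all 11 were lower on average in recovered animals, with Gpr6 past the adjusted threshold. Of all contralesional genes, 64.7% were lower, 6% were lower and past the adjusted threshold, and 43.2% had groups that did not overlap. The summed level of the 11 striatal markers was 343 to 397 CPM in recovered and 412 to 482 CPM in non-recovered libraries, without overlap. The listed genes were already selected on these libraries and all 11 were lower. Groups that do not overlap in their sum are therefore no independent support for a difference. No listed marker was at 0. Foxp1 (2672 to 5040 reads) and Rasd2 (1899 to 3039 reads) weighed most in this sum, while Drd2 had 9 to 60 reads. Taken singly, only Gpr6 and Pde10a had groups that did not overlap. By animal, the contralesional striatal sum was 343 CPM in animal 23, 380 in animal 28 and 397 in animal 6 of the recovered group. In the non-recovered group it was 412 CPM in animal 29, 448 in 20, 467 in 21, 474 in 19 and 482 in 17. Ipsilesionally 3 of the 20 were listed, 2 lower and 1 higher, at 182 to 235 against 170 to 212 CPM. Of 19 vascular and meningeal markers, 3 were listed on each side and were lower on average, at 351 to 641 against 416 to 870 CPM ipsilesionally and 66.0 to 90.7 against 88.1 to 104 CPM contralesionally, with Mgp past the adjusted threshold, against the same shares of all contralesional genes and 50.2% lower of all ipsilesional ones. Of 16 inhibitory neuron markers, Gad1 and Slc32a1 were listed ipsilesionally at 440 to 503 against 376 to 445 CPM, and Sst contralesionally at 114 to 132 against 108 to 118 CPM. The part of these cells in the differences of Npas4, Btg2 and Scg2 was not tested. Without the ipsilesional library of animal 6, which had the high myeloid sum, the differences were -0.86 for Npas4 and 0.18 for Scg2. Neither passed (limma adjusted p = 0.174 and 0.114).

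Among the listed contralesional genes, the slope on exonic length also differed between the groups. Per doubling of length, the log2 deviation from the gene means changed by -0.11 in animal 23, -0.03 in animal 28 and -0.01 in animal 6, and by 0.02 to 0.05 in non-recovered libraries. With each library's slope removed, the contralesional difference was 0.14 for Scg2 (limma adjusted p = 0.167), -1.08 for Npas4 and -0.60 for Btg2. The slopes were fitted over genes already selected on these libraries, so they can hold part of the group difference itself. Their removal is therefore no independent check of these differences.

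**Figure D5:**
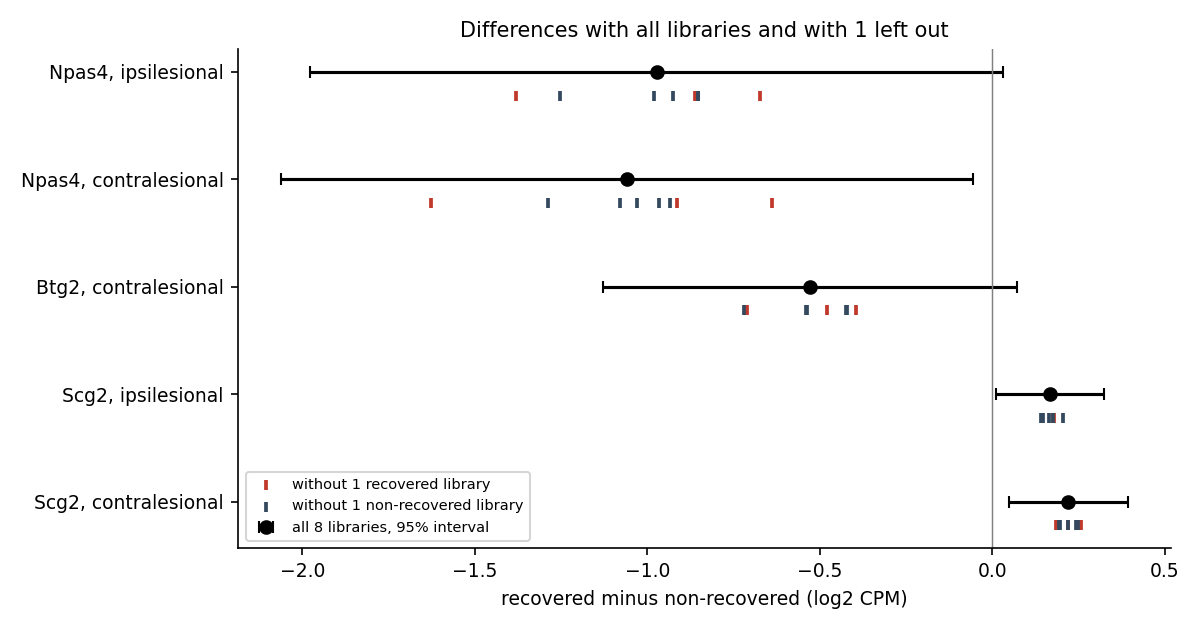
Differences between recovered and non-recovered animals (log2 CPM) with all 8 libraries (points, with limma's 95% interval) and with 1 library left out (ticks; red, a recovered library; dark, a non-recovered one). Npas4 spans -1.63 to -0.64 contralesionally, and each of the 5 differences keeps its sign in all 8 cases. The listed genes were already selected on these libraries, so kept signs are no independent support.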

How the data were processed

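RNA (integrity numbers 7 to 9) was extracted with Trizol and an RNeasy kit and made into stranded TruSeq mRNA libraries, per the labels' protocols. bcl2fastq, Trimmomatic 0.38, STAR 2.5.1b, edgeR and mm10 are named, with no roles, per the submitters' processing notes; the sources used here do not give the counter, the annotation or the rule of gene selection. The authors deposited log2 CPM per library for selected genes. Solving for the reads behind them assumed a prior count with a mean of 2, and 100% of values came out whole within 0.01. The totals recovered may include a normalization factor.

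Groups came from the titles. limma 3.58.1 in R 4.3.3 was fitted per table on the deposited log2 values over all listed genes, with Benjamini-Hochberg adjustment. It was also run on simulated data with a common spread for all genes. That run had no selection of genes, so it does not cover the selection in these data. Adjustment over selected genes can give smaller p-values than over all genes. Exact permutation tests were 2-sided. Separate sets were called where the largest inner gap between neighbouring libraries exceeded 33.3% of the range, a limit set after the values were seen. Named genes were Npas4, Btg2 and Scg2, members of fixed activity lists, and per gene and table the 3 most like and 2 most opposed, of which 1 is not reported here. The genes and lists were chosen with earlier results of these data known.

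Libraries were paired across sides by the animal number of the titles and, since titles and description codes exchange contralesional animals 6 and 23, also by code. Which of the pairings holds for these 2 animals is not settled, and the other 6 are the same in both. Npas4 deviations from group means correlated between sides, as a description, by 0.87 by number and 0.94 by description code, and those of Scg2 by 0.0035 and 0.10. Gene coordinates and lengths came from GENCODE M21 (GRCm38, the assembly of mm10), and promoters from RefSeq, where 3 of 3 genes matched. Alternatives covered pseudocount, filter, voom, moderation, quantile normalization, single libraries and, added after seeing the data, exonic length (409 of 417 and 262 of 263 genes had one).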

Additional observations from a re-analysis of the deposited data

How the results depend on the processing

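The 5 differences of Npas4, Btg2 and Scg2 kept their sign under every alternative that gave a value (14 for ipsilesional Npas4, which the filter on low genes removed, and 15 for each of the others). The listed genes were already selected on these libraries, so kept signs are no independent support for the differences. The share of all listed genes that kept their sign is not given here. Adjusted p ranged from 0.0515 to 0.221 and from 0.0520 to 0.20 for ipsilesional and contralesional Npas4, from 0.0554 to 0.242 for Btg2, and from 0.0480 to 0.156 and from 0.0508 to 0.167 for Scg2. Trend and robust moderation brought ipsilesional Scg2 past the threshold (0.17, limma adjusted p = 0.0480). With the animal as a replicate block, the hemisphere difference stayed at 0.087 for Npas4 (SE 0.23 by number and 0.17 by code) and -0.054 for Scg2 (SE 0.11 by each), and no call changed. It ran from -0.22 (without animal 6) to 0.25 for Npas4 and from -0.11 to -0.0070 for Scg2 with 1 animal left out. The ipsilesional count of 3 genes past the adjusted threshold was 1 on log2(CPM + 1), 1 with the filter, 0 with voom (222 unadjusted), 196 with trend and robust moderation (97 higher, 99 lower), 39 after quantile normalization (15 higher, 24 lower), 31 without the length slope (12 higher, 19 lower) and 0 to 18 with 1 library left out. The contralesional count of 33 was 3, 2, 0 (356 unadjusted), 2, 77 (70 higher, 7 lower), 63 (16 higher, 47 lower) and 0 to 74 under the same alternatives. The cause of these shifts was not tested. The group of 3 recovered animals limits the precision, and counting intervals cover counting error only.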

Other observations

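The non-recovered animal 19 was the lowest of its group in Npas4 on both sides and in Btg2. Its gap to the next animal was 0.682 of the group's range for ipsilesional Npas4, 0.589 for contralesional Npas4 and 0.599 for Btg2, each under the 0.71 at which the lowest of 5 values counts as an outlier. Without it, the differences were -1.25 for ipsilesional Npas4 (limma adjusted p = 0.0515), -1.29 for contralesional Npas4 (0.0638) and -0.72 for Btg2 (0.0554).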
